A study of Mus musculus with 42 samples.

Results

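Activated CD4+ T cells act on other cells through secreted cytokines, and 8 effector cytokine genes besides Il2 were followed here: Lif, Tnf, Lta, Ifng, Il4, Csf2, Il3 and Il17a. They were taken by name, through the gene symbol that the array's annotation gives, out of 19752 genes with a transcript cluster of a single symbol. Each had 1 cluster. Of the 8, 6 passed the filter for signal (above the array's own median on at least 2 arrays) and were among the 12425 genes tested; Csf2 and Il3 were above the median on no array and are described by their levels.

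The cells came from spleens of NOD mice, a strain prone to autoimmune diabetes, that carried Foxp3-IRES-GFP, a reporter which makes cells with the transcription factor Foxp3 fluoresce. Regulatory T cells (Treg, CD4+ GFP+) and conventional T cells (Tconv, CD4+ GFP-) were sorted apart after KT3, an antibody against the CD3 chains of the T cell receptor complex. In vivo, KT3 was injected into females of 8 weeks and cells were taken at 2, 8, 24 and 72 h, with untreated mice as 0 h. In addition, 1 array per cell type was of cells taken 24 h after rat IgG. In vitro, whole splenocytes were cultured with KT3 at 1.25 µg/ml for the same times. There the arrays numbered 1 came from females of 9 weeks and those numbered 2 from males of 14 weeks, all homozygous for the reporter. Each cell type, setting and time had 2 arrays, so that 42 arrays in 22 groups were used. All mice in every group, controls included, carried the reporter, and the labels do not say whether the arrays of a group came from separate in vivo mice; the tests here can speak of array-to-array spread alone. The labels give the GFP- gate for all cultured samples, Treg included.

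T cell receptor signals switch on cytokine genes through calcium and the factor NFAT together with AP-1 and NF-kB. In Treg, Foxp3 binds NFAT and is known for keeping Il2 and Ifng low, while Treg can still make some mediators after stimulation. Lif signals through Lifr and gp130, encoded by Il6st. Tnf and Lta are TNF family ligands that share the receptors Tnfrsf1a and Tnfrsf1b. Ifng, the interferon that activates macrophages, is the mark of type 1 helper cells, Il4 that of type 2 helper cells and Il17a that of Th17 cells. Csf2 (GM-CSF) and Il3 act on myeloid cells through the shared chain Csf2rb. Tnf lies between Ltb and Lta on chromosome 17, and Csf2 beside Il3 on chromosome 11, in the gene order of GRCm38.p6.

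Promoters are shown for the members whose transcripts moved in both cell types (Lif, Tnf, Lta). Those with their highest group mean in Tconv at 2 h in vivo (Ifng, Il4 and Csf2, the last dim on every array) are shown too. NFAT is the common arm of the stimulus and Foxp3's known partner. The sequences are RefSeq's, GRCm38.p6, 5′ to 3′ on the gene's strand, the 250 bases before the listed start, and all 8 members were matched. For Lta the listed start lies within the gene's annotated span (chr17:35203165-35205578). Most of its window, and each match named for it below, therefore lies inside that span and not upstream of it. Capitals mark the NFAT core GGAAA or its complement TTTCC.
Lif (chr11:4257318-4257567, plus strand): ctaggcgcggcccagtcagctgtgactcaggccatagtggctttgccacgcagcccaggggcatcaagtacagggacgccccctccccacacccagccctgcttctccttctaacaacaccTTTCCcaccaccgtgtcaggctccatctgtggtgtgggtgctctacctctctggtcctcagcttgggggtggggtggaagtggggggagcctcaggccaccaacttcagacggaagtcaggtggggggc
Tnf (chr17:35202008-35202257, minus strand): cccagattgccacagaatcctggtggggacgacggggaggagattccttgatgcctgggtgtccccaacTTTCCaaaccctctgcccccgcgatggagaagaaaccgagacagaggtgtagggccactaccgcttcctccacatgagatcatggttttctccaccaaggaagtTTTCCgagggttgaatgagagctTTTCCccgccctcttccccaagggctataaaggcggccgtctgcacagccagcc
Lta (chr17:35205352-35205601, minus strand): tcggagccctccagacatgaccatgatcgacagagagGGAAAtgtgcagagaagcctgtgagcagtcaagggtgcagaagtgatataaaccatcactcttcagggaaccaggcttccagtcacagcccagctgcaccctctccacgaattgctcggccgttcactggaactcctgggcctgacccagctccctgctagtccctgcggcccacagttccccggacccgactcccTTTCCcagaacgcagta
Ifng (chr10:118440796-118441045, plus strand): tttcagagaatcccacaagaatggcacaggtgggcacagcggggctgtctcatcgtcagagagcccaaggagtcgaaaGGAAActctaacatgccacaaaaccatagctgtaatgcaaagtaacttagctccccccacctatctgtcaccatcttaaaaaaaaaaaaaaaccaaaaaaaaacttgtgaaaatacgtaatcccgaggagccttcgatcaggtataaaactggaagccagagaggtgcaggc
Il4 (chr11:53618666-53618915, minus strand): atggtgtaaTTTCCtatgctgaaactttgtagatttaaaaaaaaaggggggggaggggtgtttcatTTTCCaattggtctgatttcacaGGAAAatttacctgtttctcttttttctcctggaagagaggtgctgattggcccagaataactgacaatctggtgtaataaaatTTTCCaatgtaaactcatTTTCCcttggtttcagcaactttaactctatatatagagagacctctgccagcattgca
Csf2 (chr11:54249900-54250149, minus strand): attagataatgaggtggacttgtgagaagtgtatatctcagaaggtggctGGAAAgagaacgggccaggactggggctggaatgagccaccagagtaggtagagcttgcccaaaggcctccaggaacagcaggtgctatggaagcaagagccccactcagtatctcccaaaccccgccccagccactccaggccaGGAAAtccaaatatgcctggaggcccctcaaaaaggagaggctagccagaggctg
The core was found 5 times in Il4, 3 times in Tnf, 2 times each in Lta and Csf2, and 1 time each in Lif, Ifng and Il3. It was not found in the window of Il17a. Of 32841 promoters searched the same way on both strands, 55.6% held it, so that a match is common. A TATA box (TATAAA) was found in the windows of Tnf, Lta, Ifng and Il17a, against 12.4% of all promoters, the NF-kB consensus in that of Lif, against 7.25%, and the AP-1 site TGANTCA in those of Lif and Il17a, against 6.75%. The AP-1 letters can be read on both strands at once, and an NF-kB site can contain the NFAT core, although in the window of Lif the matches lie apart. The CRE half-site TGACG was found in the windows of Ifng and Il17a (17.8% of all) and the T-box half-site TCACAC in none of the 8 (12.3% of all).

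Foxp3 had log2 intensities of 11.30 to 12.34 on the 21 Treg arrays and 7.02 to 8.20 on the 21 Tconv arrays, so that every library matched its label, the cultured Treg included. Array medians, on the same scale, lay between 6.45 and 6.86. The 0 h array number 1 of cultured Tconv stood apart from all others (mean correlation with the other arrays 0.511, next lowest 0.794), and results that rest on it are given without it too. The spread in every test is shared over all arrays, this 0 h array included. The next lowest was cultured Tconv 8 h number 1, which all comparisons of cultured Tconv at 8 h use. The in vivo arrays numbered 1, mostly labelled single-sorted, held more RNA of other cells than those numbered 2, mostly labelled double-sorted: the mean log2 level of 6 macrophage markers was 6.21 to 7.72 against 5.42 to 5.72, of 6 neutrophil markers 6.20 to 8.79 against 5.31 to 5.58, and of the 5 B cell markers with a cluster (of 6) 6.30 to 7.91 against 5.33 to 5.83. Arrays with the other sort label kept the level of their number. The macrophage marker Lyz2 was 7.38 on Tconv 8 h number 1, labelled double-sorted. It was 5.27 on Tconv 8 h number 2 and 5.36 on Treg 24 h number 2, both labelled single-sorted. The 5 NK cell markers with a cluster (of 6) averaged 4.63 to 5.57 over all arrays, with at most 1 above the array median. In bulk samples fewer cells that make a cytokine and less RNA per cell cannot be told apart.

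Within 2 h of injected KT3, Lif, Tnf and Lta rose in Treg and in Tconv, whereas Ifng rose in Tconv and stayed near its 0 h level on the Treg arrays. In Treg 3 of the 6 tested members rose at 2 h and 2 at 8 h, where 5.04% and 6.36% of all genes rose. In Tconv 4 rose at 2 h and 3 at 8 h, against 3.04% and 14.4% of all genes, Ifng among them, which had entered the test largely through Tconv arrays on which it was high. At 24 and 72 h no member was called in Treg (2 and 0 at an unadjusted p under 0.05), where 0.483% and 0.0241% of all genes were called, or in Tconv (0 and 0), where 2.4% and 0.29% were. The values for each time share the same pair of 0 h arrays.

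**Figure D1:**
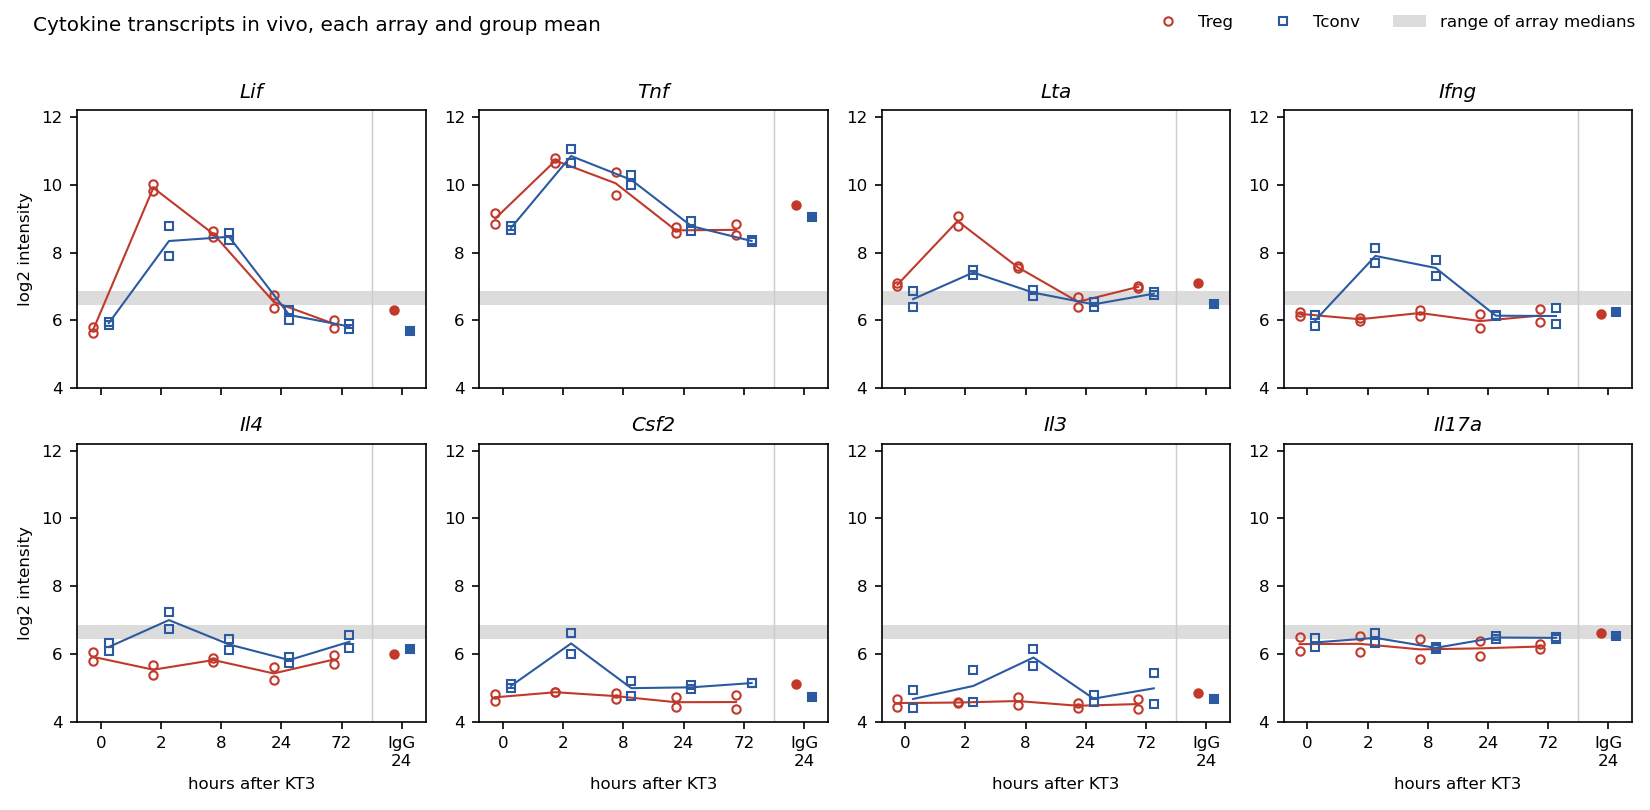
Log2 intensity (vertical) of the 8 cytokine transcripts on each in vivo array by hours after KT3 (horizontal), with lines through the group means; circles are Treg, squares Tconv, filled symbols the IgG arrays, and the grey band the range of array medians (6.45 to 6.86). Lif, Tnf and Lta peak in both cell types, Lif at 10.01 and 9.81 and Lta at 9.07 and 8.79 in Treg at 2 h, while Ifng rises above the band on the Tconv arrays of 2 and 8 h (7.31 to 8.12) and lies below it on all Treg arrays.

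Lif, an IL-6 family cytokine, had the steepest rise among the members. In Treg its log2 intensity was 5.80 and 5.63 at 0 h, 10.01 and 9.81 at 2 h, 8.45 and 8.64 at 8 h, 6.74 and 6.35 at 24 h, and 5.77 and 6.02 at 72 h. In Tconv it was 5.87 and 5.96 at 0 h, 8.77 and 7.91 at 2 h, 8.57 and 8.36 at 8 h, 6.02 and 6.29 at 24 h, and 5.88 and 5.75 at 72 h. Both Treg arrays of 2 h were above both Tconv arrays, the cell types overlapped at 8 h, and both were back near their 0 h levels at 72 h. Against 0 h Lif was 18.3-fold higher in Treg at 2 h (log2 4.19 ± 0.37, SE, n = 2 arrays a group here and throughout; limma, adjusted p = 3.99e-08) and 5.38-fold higher in Tconv (2.43 ± 0.37, adjusted p = 0.000102). At 8 h the rises were 7.11-fold in Treg (adjusted p = 1.7e-05) and 5.88-fold in Tconv (adjusted p = 1.74e-05).

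Compared directly at 2 h, Lif was 2.96-fold higher in Treg than in Tconv (log2 1.56 ± 0.37, adjusted p = 0.0115). That call was lost without Treg number 1 (1.46), Treg number 2 (1.67) or Tconv number 2 (1.14) of that time. At 8 h the difference was 0.07, with a 95% interval of -0.68 to 0.83. From 8 to 24 h Lif fell by 2.00 ± 0.37 on the log2 scale in Treg (adjusted p = 0.00161), where 2.21% of all genes fell, and by 2.32 ± 0.37 in Tconv (adjusted p = 4.45e-05), where 10.9% did.

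Tnf, the inflammatory ligand that starts NF-kB signalling in its targets, was above the array median on all 42 arrays. In Treg it was 8.84 and 9.17 at 0 h, 10.65 and 10.78 at 2 h, 9.71 and 10.38 at 8 h, 8.57 and 8.74 at 24 h, and 8.51 and 8.83 at 72 h. In Tconv it was 8.67 and 8.78 at 0 h, 11.05 and 10.65 at 2 h, 10.00 and 10.29 at 8 h, 8.63 and 8.93 at 24 h, and 8.32 and 8.36 at 72 h. The cell types overlapped at 2, 8 and 24 h. At 2 h Tnf was 3.27-fold above 0 h in Treg (log2 1.71 ± 0.30, adjusted p = 0.000345) and 4.36-fold above 0 h in Tconv (2.12 ± 0.30, adjusted p = 3.41e-05). At 8 h it was still 2.67-fold higher in Tconv (adjusted p = 0.000965) and 2.05-fold higher in Treg (adjusted p = 0.0242). The Treg call at 8 h was lost without Treg 0 h number 1 (0.87), 0 h number 2 (1.21) or 8 h number 2 (0.70). Treg minus Tconv was -0.14 at 2 h (95% interval -0.75 to 0.47) and -0.10 at 8 h (-0.71 to 0.51). Both intervals lie within the size of the rise at 2 h in either cell type.

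Lta, or lymphotoxin alpha, which is secreted or held at the surface by Ltb, was higher in Treg at 2 h. Its Treg levels were 7.0 and 7.10 at 0 h, 9.07 and 8.79 at 2 h, 7.53 and 7.60 at 8 h, 6.40 and 6.69 at 24 h, and 6.96 and 7.01 at 72 h. Its Tconv levels were 6.86 and 6.39 at 0 h, 7.47 and 7.35 at 2 h, 6.73 and 6.90 at 8 h, 6.54 and 6.40 at 24 h, and 6.74 and 6.83 at 72 h. Treg arrays lay above Tconv arrays at 0, 2, 8 and 72 h. The rise at 2 h was 3.69-fold in Treg (log2 1.88 ± 0.22, adjusted p = 2.76e-06) and 1.72-fold in Tconv (0.78 ± 0.22, adjusted p = 0.0471), and in Tconv the call was lost without 2 h number 1 (0.72), 0 h number 2 (0.55) or 2 h number 2 (0.84). At 2 h Lta was 2.88-fold higher in Treg than in Tconv (1.52 ± 0.22, adjusted p = 5.48e-05), a call that held without each array in turn. At 8 h the difference was 0.75 ± 0.22 (adjusted p = 0.053; 0.0456 with the array number as a block and 0.0148 with the in vivo arrays fitted alone), and at 0 h 0.43 ± 0.22 (adjusted p = 0.529). In Treg Lta had already fallen by 1.37 ± 0.22 from 2 to 8 h (adjusted p = 0.00216), where 0.298% of all genes fell; without 2 h number 1 that fall was 1.22 and not called.

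Ifng was the tested member that separated the cell types most in vivo. In Treg it was 6.14 and 6.24 at 0 h, 6.07 and 5.99 at 2 h, 6.29 and 6.14 at 8 h, 5.76 and 6.19 at 24 h, and 5.95 and 6.33 at 72 h, all below the array medians. In Tconv it was 5.84 and 6.16 at 0 h, 8.12 and 7.68 at 2 h, 7.31 and 7.78 at 8 h, 6.15 and 6.12 at 24 h, and 5.89 and 6.36 at 72 h. All 4 Tconv arrays of 2 and 8 h stood above every other in vivo array of either cell type. Ifng passed the filter through 9 arrays, 7 of them Tconv after KT3, so that its tests are of a gene admitted largely where it was high. In Tconv it was 3.74-fold above 0 h at 2 h (log2 1.90 ± 0.32, adjusted p = 0.000438) and 2.92-fold at 8 h (1.55 ± 0.32, adjusted p = 0.000873). In Treg the change was -0.16 at 2 h (95% interval -0.82 to 0.50) and 0.02 at 8 h (-0.64 to 0.68). Treg Ifng was at the dim end of the scale at every time, so that these intervals describe array signal near background.

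At 2 h Ifng was lower in Treg than in Tconv by 1.87 ± 0.32 on the log2 scale (Treg minus Tconv -1.87, adjusted p = 0.000414), a call that held without each array in turn. At 8 h it was lower in Treg (-1.33 ± 0.32, adjusted p = 0.0131), a call that was lost without Treg number 1 (-1.41), Treg number 2 (-1.26) or Tconv number 2 (-1.10) of 8 h. NK cells also make Ifng. At 2 h the mean of the NK markers was 5.02 and 5.01 on the Treg arrays and 4.93 and 5.01 on the Tconv arrays, and at 8 h 5.50 and 5.10 on the Treg arrays and 4.80 and 4.70 on the Tconv arrays. The marker above the array median there was Eomes, which some T cells also express (9.34 and 9.17 in Treg, 7.56 and 7.82 in Tconv at 2 h). Ncr1, the defining receptor of NK cells, was 5.05 and 4.73 in Treg and 5.62 and 5.46 in Tconv at 2 h, and 5.74 and 4.93 in Treg and 4.69 and 4.79 in Tconv at 8 h. The part of these cells in the Ifng result was not tested. Macrophages also make Tnf; their marker mean at 2 h was 7.33 and 5.65 on the Treg arrays and 7.29 and 5.61 on the Tconv arrays, and their part in the Tnf result was not tested. Tnf at 2 h was 10.65 and 10.78 on the Treg arrays and 11.05 and 10.65 on the Tconv arrays, in the same order of array numbers.

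Il4 was above the array median on only 3 arrays, all Tconv at 2 h, which is what let it pass the filter, so that its calls there describe how it was admitted. In vivo it was 5.39 and 5.68 in Treg and 7.25 and 6.75 in Tconv at 2 h, and 5.78 and 6.05 in Treg and 6.10 and 6.31 in Tconv at 0 h. At 2 h both Tconv arrays were above every other in vivo array, and both Treg arrays below their own 0 h arrays. The Treg minus Tconv difference at 2 h was -1.47 ± 0.26 (adjusted p = 0.000688). The rise in Tconv from 0 h was 0.80 ± 0.26 (adjusted p = 0.101). The mean of 7 mast cell and basophil markers, cells that also make Il4, was 5.18 and 5.12 on the Treg arrays and 5.32 and 5.22 on the Tconv arrays of 2 h, and their part was not tested.

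Csf2 and Il3, neighbours on the chromosome, stayed dim throughout and are given as levels. In vivo Csf2 was 4.62 and 4.82 in Treg at 0 h, 4.87 and 4.87 at 2 h and 4.67 and 4.84 at 8 h. In Tconv it was 5.12 and 4.99 at 0 h, 6.61 and 6.01 at 2 h and 5.21 and 4.77 at 8 h. The 2 h Tconv arrays held the highest in vivo levels of Csf2. Il3 stayed between 4.36 and 4.85 on all 11 in vivo Treg arrays. In Tconv it was 4.95 and 4.39 at 0 h, 5.52 and 4.59 at 2 h and 6.14 and 5.65 at 8 h, where both arrays were above every in vivo Treg array. In a fit with no filter on dim genes the Treg minus Tconv difference of Csf2 at 2 h was -1.43 ± 0.27 and that of Il3 at 8 h -1.29 ± 0.44. These describe signal below the array medians and are given without a p.

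Il17a showed no response. Its log2 intensity ranged from 5.84 to 6.61 over the 11 in vivo Treg arrays and from 6.14 to 6.62 over the 11 in vivo Tconv arrays. None of its contrasts was called, with changes between -0.72 and 0.72 on the log2 scale and a lowest adjusted p of 0.142. The highest array of all was cultured Treg number 2 at 72 h, at 7.60, while its partner was at 6.36.

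Setting the cell types side by side in vivo, Lif and Lta were higher and Ifng and Il4 lower in Treg at 2 h. Il4 had entered the test through Tconv arrays of 2 h alone, and Ifng largely through Tconv arrays, so that no count is drawn from these. Of all genes, 2.94% were higher and 0.515% lower in Treg at that time. At 8 h Ifng was lower in Treg, and Lta passed under the block or with the in vivo arrays alone, where 1.07% of all genes were lower in Treg, and at 0, 24 and 72 h no member passed at an adjusted or an unadjusted p under 0.05 in limma, where 3.1%, 3.2% and 3.6% of all genes were called. Whether the rise itself differed between cell types was asked by subtracting the Tconv response from the Treg response, and here no member passed, at any time in vivo. That test called 0.0483% of all genes at 2 h, 0.233% at 8 h, 0.0644% at 24 h and 0.0161% at 72 h. Unadjusted, 5 of the 24 in vivo member tests were under 0.05, 4 of them at 2 h: Ifng -2.06 ± 0.45 (adjusted p = 0.12), Lif 1.77 ± 0.52 (0.744), Lta 1.10 ± 0.31 (0.729) and Il4 -1.18 ± 0.37 (0.993). Ifng passed when the in vivo arrays were fitted alone (-2.06, adjusted p = 0.0272). For Tnf the difference between the responses was -0.41 (95% interval -1.27 to 0.45).

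**Figure D2:**
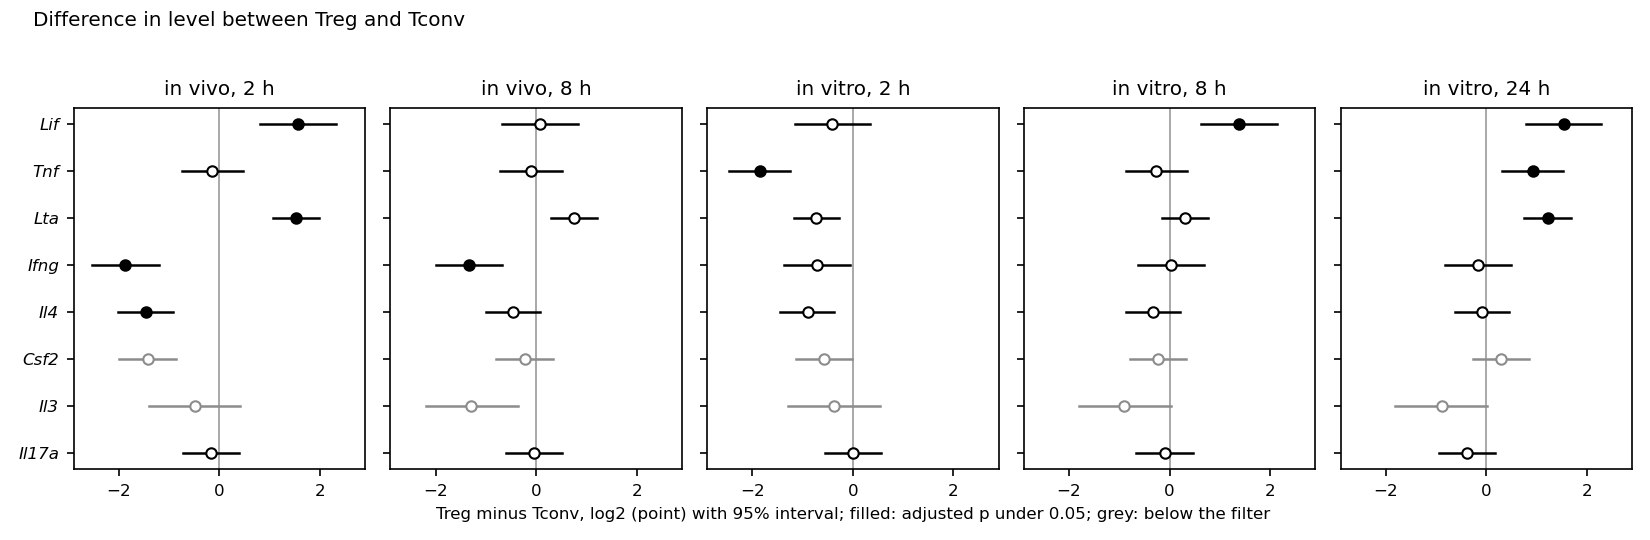
Treg minus Tconv level (log2, horizontal) of each member (vertical) at 2 and 8 h in vivo and 2, 8 and 24 h in vitro; points are limma estimates, lines 95% intervals, filled points passed an adjusted p of 0.05, and grey marks Csf2 and Il3, taken from the fit with no filter and drawn open whatever their p. At 2 h in vivo Lif (1.56) and Lta (1.52) lie right of 0, Tnf (-0.14) on it, and Ifng (-1.87) and Il4 (-1.47) left of it; at 2 h in vitro it is Tnf (-1.85) that lies left.

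Il2, the growth factor of T cells that Treg make little of, and Il21, made by helper T cells, were measured on the same arrays. At 8 h Il2 was 7.33 and 8.46 on the Tconv arrays, whereas all in vivo Treg arrays lay between 4.49 and 5.23. Il21 at 8 h was 5.79 and 5.82 in Treg, above the 0 h arrays (4.32 and 4.09), and 9.49 and 9.70 in Tconv. Both genes passed the limma test of the difference between responses at 8 h (Il2 -3.05 ± 0.38, adjusted p = 0.000128, and Il21 -3.29 ± 0.28, adjusted p = 1.35e-07). Both were above the array median only on the in vivo Tconv arrays of 2 and 8 h. That is what let them pass the filter, so that these calls describe genes admitted where they were high.

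In culture the same 3 cytokines rose in both cell types, but the order in time changed: Tconv raised Tnf at once, and Treg reached their highest Lif, Tnf and Lta at 8 to 24 h. In Treg no tested member was called at 2 h (2 at an unadjusted p under 0.05), where 5.64% of all genes were; 2 rose at 8 h and 3 at 24 h, against 4.52% and 5.01% of all genes, and none was called at 72 h (2 unadjusted), against 9.11%. In Tconv 3 rose at 2 h and 2 at 8 h, against 19.5% and 15.7% of all genes. None was called there at 24 or 72 h (0 and 1 unadjusted), where 26.8% and 7.55% were. These Tconv counts and shares rest in part on the 0 h array that stood apart. Without it the Lta rise was 0.51 at 2 h and 0.59 at 8 h. The median change over all genes was then -0.03 at 24 h and -0.06 at 72 h, against 0.23 and 0.15 with it. Treg and Tconv levels of the members did not pass at 0 or 72 h by either p, against 11.2% and 10.3% of all genes. The share at 0 h uses that array too.

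**Figure D3:**
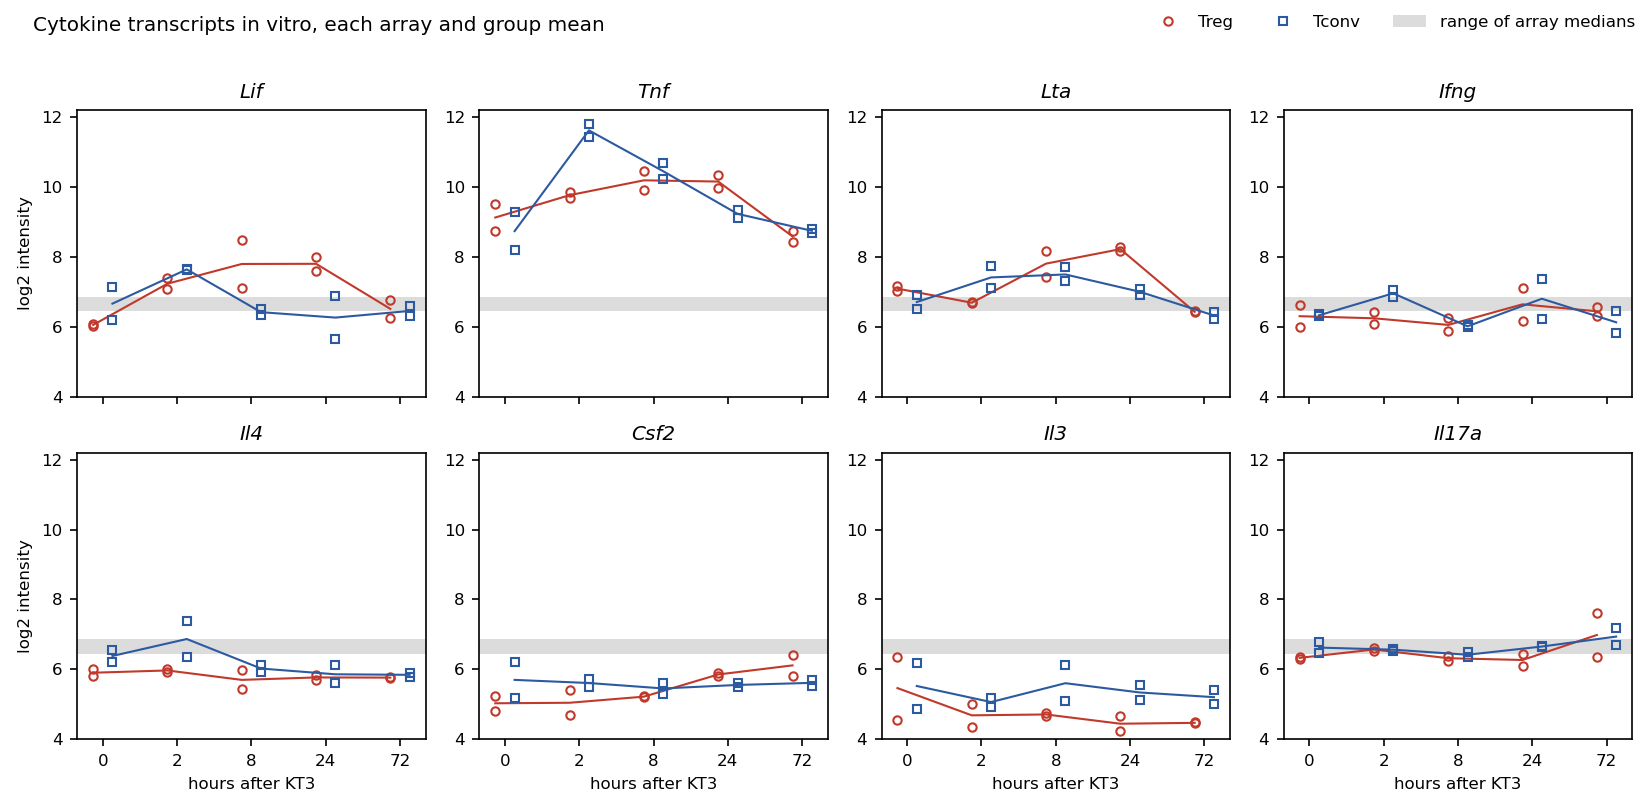
Log2 intensity (vertical) of the 8 cytokine transcripts on each in vitro array by hours after KT3 (horizontal), drawn as for the in vivo arrays. Tnf reaches 11.43 and 11.82 in Tconv at 2 h, while Lta stands highest in Treg at 24 h (8.28 and 8.17) and Ifng is at 7.38 or below in both cell types.

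Tnf in cultured Treg was 8.75 and 9.51 at 0 h, 9.68 and 9.86 at 2 h, 10.46 and 9.93 at 8 h, 10.35 and 9.97 at 24 h, and 8.74 and 8.44 at 72 h. In cultured Tconv it was 8.20 and 9.28 at 0 h, 11.43 and 11.82 at 2 h, 10.68 and 10.23 at 8 h, 9.35 and 9.12 at 24 h, and 8.81 and 8.69 at 72 h. Tconv arrays were far above Treg arrays at 2 h, and Treg arrays above Tconv arrays at 24 h. The Tconv rise at 2 h was 7.42-fold (log2 2.89 ± 0.30, adjusted p = 1.29e-07), and 2.35 without the 0 h array that stood apart; at 8 h it was 1.72 ± 0.30 (adjusted p = 0.000191), and 1.18 without that array. The Treg rise was 0.65 ± 0.30 at 2 h (adjusted p = 0.253), 1.07 at 8 h (adjusted p = 0.0302) and 1.03 at 24 h (adjusted p = 0.0377). Without the Treg 0 h array number 1 the values at 8 and 24 h were 0.69 and 0.65 and not called. Leaving out Treg 8 h number 1 (0.80), 24 h number 1 (0.84) or 24 h number 2 (1.22) lost the call of that time as well.

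At 2 h in culture Tnf was 3.61-fold lower in Treg than in Tconv (log2 -1.85 ± 0.30, adjusted p = 0.000182), a call that held without each array in turn. At this time 0.531% of all genes were lower in Treg. The Treg response was smaller than the Tconv response by 2.25 ± 0.42 on the log2 scale (Treg minus Tconv -2.25, 95% interval -3.11 to -1.39, adjusted p = 0.0181), where 0.145% of all genes were called. No other member passed that test in culture at 2, 8, 24 or 72 h, where 0.652%, 0.491% and 1.79% of all genes were called at the later times. Lif came nearest (2.15 ± 0.52 at 24 h, adjusted p = 0.0569 in limma). That Lif value uses the Tconv 0 h array that stood apart, which held 7.14 against 6.19 on its partner. Without single arrays the Tnf value changed. It was -1.71 and not called without the Tconv 0 h array that stood apart. The call was also lost without Tconv 2 h number 1 (-2.44) or number 2 (-2.05), Treg 2 h number 1 (-2.16) or number 2 (-2.33), or Treg 0 h number 2 (-1.87). At 24 h Tnf was 1.89-fold higher in Treg (0.92 ± 0.30, adjusted p = 0.0308), and that call was lost without Tconv number 1 (1.03), Tconv number 2 (0.81) or Treg number 1 (0.73).

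Lif in cultured Treg was 6.03 and 6.08 at 0 h, 7.40 and 7.07 at 2 h, 8.48 and 7.12 at 8 h, 7.61 and 8.00 at 24 h, and 6.77 and 6.26 at 72 h. In cultured Tconv it was 7.14 and 6.19 at 0 h, 7.67 and 7.62 at 2 h, 6.51 and 6.33 at 8 h, 5.65 and 6.88 at 24 h, and 6.59 and 6.32 at 72 h. Treg held it up through 24 h, and Tconv were back within their 0 h range at 8 h. The Treg rise was 3.36-fold at 8 h (log2 1.75 ± 0.37, adjusted p = 0.00375) and 3.36-fold at 24 h (1.75 ± 0.37, adjusted p = 0.00443). Without Treg 0 h number 1 both were 1.72 and not called; without 8 h number 1 the first was 1.07, and without 24 h number 2 the second was 1.55, again not called. The Tconv rise at 2 h was 0.98 ± 0.37 (adjusted p = 0.0498), and the call was lost without 2 h number 1 (0.95), 2 h number 2 (1.01) or 0 h number 2 (0.51). Lif was 2.60-fold higher in Treg than in Tconv at 8 h (1.38 ± 0.37, adjusted p = 0.0098) and 2.91-fold at 24 h (1.54 ± 0.37, adjusted p = 0.00613), where 17.2% and 14.2% of all genes were higher in Treg. The call at 8 h was lost without Treg number 1 (0.70) or Tconv number 1 (1.47), and that at 24 h without Tconv number 1 (0.92) or Treg number 2 (1.34).

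Lta in cultured Treg was 7.02 and 7.17 at 0 h, 6.68 and 6.70 at 2 h, 8.18 and 7.44 at 8 h, 8.28 and 8.17 at 24 h, and 6.44 and 6.42 at 72 h. In cultured Tconv it was 6.51 and 6.91 at 0 h, 7.10 and 7.73 at 2 h, 7.70 and 7.30 at 8 h, 7.09 and 6.92 at 24 h, and 6.42 and 6.23 at 72 h. Treg arrays were below Tconv arrays at 2 h and above them at 24 h. The Treg rise at 24 h was 2.19-fold (log2 1.13 ± 0.22, adjusted p = 0.00249), and 1.05 and not called without 0 h number 1. The Tconv rise was 0.71 ± 0.22 at 2 h (adjusted p = 0.0228) and 0.79 ± 0.22 at 8 h (adjusted p = 0.0131), and without the 0 h array that stood apart it was 0.51 (adjusted p = 0.35) and 0.59 (adjusted p = 0.179). The first call was also lost without 2 h number 2 (0.40) and the second without 8 h number 1 (0.59). At 24 h Lta was 2.33-fold higher in Treg than in Tconv (1.22 ± 0.22, adjusted p = 0.000575), a call that held without each array in turn. From 24 to 72 h all 3 fell in Treg: Lta by 1.80 ± 0.22 (adjusted p = 3.13e-06), Tnf by 1.56 ± 0.30 (adjusted p = 0.00112) and Lif by 1.29 ± 0.37 (adjusted p = 0.0423), where 1.41% of all genes fell. The last of these calls was lost without any 1 of the 4 arrays, where Lif fell by 1.03 to 1.55.

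Ifng in culture was 6.42 and 6.07 in Treg and 7.06 and 6.86 in Tconv at 2 h, against 5.99 and 6.62 in Treg and 6.36 and 6.30 in Tconv at 0 h. Both Tconv arrays of 2 h were above the 0 h arrays, by 0.63 ± 0.32 (adjusted p = 0.131), and the Treg minus Tconv difference was -0.71 ± 0.32 (adjusted p = 0.346). At 24 h array number 2 was the higher of both cell types (7.12 in Treg, 7.38 in Tconv), while number 1 was at 6.17 and 6.23. Il4 at 2 h was 5.91 and 6.02 in Treg and 7.38 and 6.35 in Tconv, a difference of -0.90 ± 0.26 (adjusted p = 0.0565).

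Csf2 in cultured Treg was highest late, at 5.24 and 4.81 at 0 h, 5.82 and 5.88 at 24 h and 5.81 and 6.41 at 72 h, still below the array medians. In the fit with no filter its rise at 72 h was 1.08 ± 0.27, again given without a p. Il3 differed more by array number than by cell type at the start of culture, at 6.36 and 4.56 in Treg and 6.18 and 4.86 in Tconv at 0 h. The value of 6.18 was on the array that stood apart. At 8 h Il3 was 4.75 and 4.66 in Treg and 6.11 and 5.09 in Tconv. At 24 h number 2 was the higher in both cell types, at 4.23 and 4.65 in Treg and 5.12 and 5.55 in Tconv. The arrays numbered 1 and 2 differed in sex and age of the mice, and these cannot be told apart.

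The settings were set against each other by the difference between the in vivo and in vitro responses. In Treg at 2 h the Lif response was larger in vivo by 3.01 ± 0.52 on the log2 scale (adjusted p = 0.000783) and the Lta response by 2.29 ± 0.31 (adjusted p = 5.43e-05), where 3.68% of all genes were called. Both held without each array in turn. At 24 h the Lta response of Treg was smaller in vivo (in vivo minus in vitro -1.63 ± 0.31, adjusted p = 0.0273), where 0.0966% of all genes were called. That call was lost without Treg in vivo 0 h number 1 (-1.68) or number 2 (-1.59), in vivo 24 h number 1 (-1.48), in vitro 0 h number 1 (-1.55), or in vitro 24 h number 1 (-1.58) or number 2 (-1.68). In Tconv the Lif response at 8 h was larger in vivo by 2.80 ± 0.52 (adjusted p = 0.00958), where 0.491% of all genes were called. Without the in vitro 0 h array that stood apart it was 2.33 (adjusted p = 0.0694), and the call was also lost without in vivo 0 h number 1 (2.75), in vivo 8 h number 1 (2.69) or in vitro 8 h number 2 (2.71). At the other times no member passed this comparison in Treg (0.362% of all genes at 8 h and 1.58% at 72 h) or in Tconv (5.04% at 2 h, 1.05% at 24 h and 0.0885% at 72 h), although 10 of the 48 member tests were under an unadjusted 0.05, the 4 called ones included. Route, culture with other spleen cells, and the age and sex of the mice all differ between the settings and cannot be told apart.

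**Figure D4:**
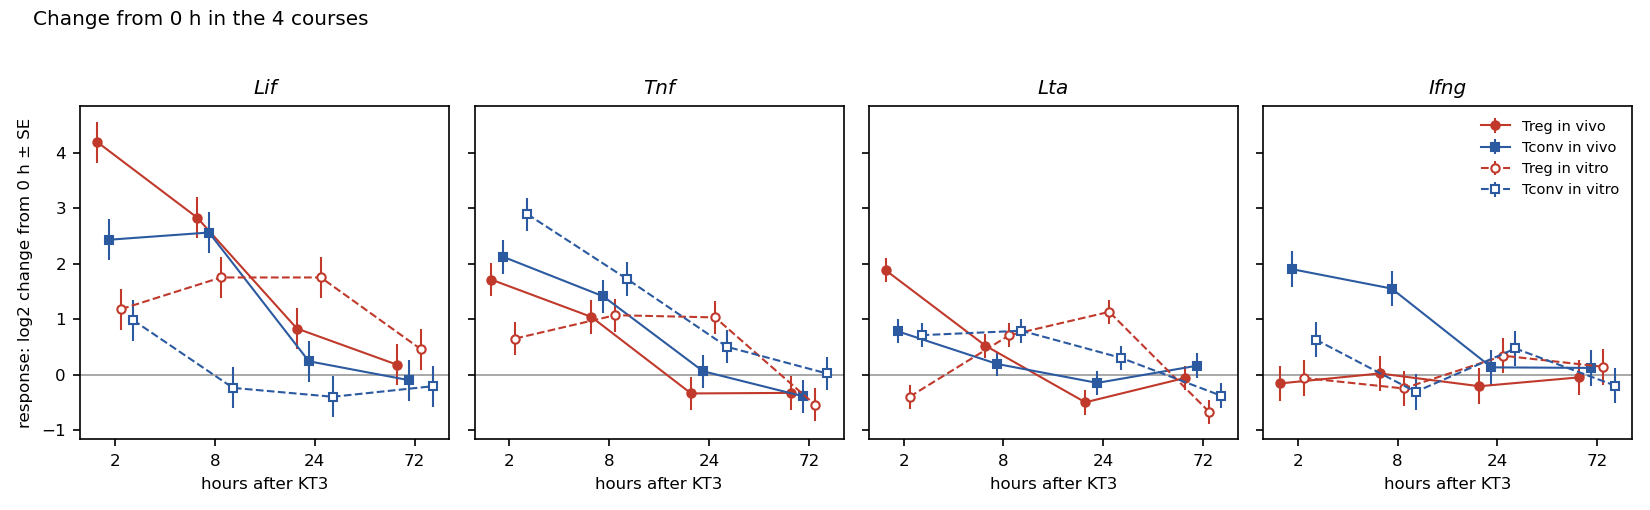
Change from 0 h (log2, vertical, ± SE, n = 2 arrays a group) of Lif, Tnf, Lta and Ifng at 2, 8, 24 and 72 h after KT3 (horizontal); red circles are Treg, blue squares Tconv, full lines in vivo and dashed lines in vitro. The Treg peak of Lif and Lta is at 2 h in vivo (4.19 and 1.88) and at 8 to 24 h in vitro (at most 1.75 and 1.13), and Ifng rises in vivo in Tconv (1.90 at 2 h).

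Against the single IgG array per cell type at 24 h, none of the 12 member tests was called (1 at an unadjusted p under 0.05, Lta in Treg, -0.56 ± 0.27 and adjusted p = 0.362), where 0.274% of all genes were called in Treg and 1.47% in Tconv. The lone IgG array is assumed to vary like the other groups, and each cell type has 1 such array. At 24 h after KT3 the mean of every tested member in vivo was within 0.83 log2 units of 0 h.

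Ordered by group mean over the 20 groups of the KT3 courses, Lif stood highest in Treg in vivo at 2 h (9.91), followed by Treg at 8 h (8.54) and Tconv at 8 h (8.47), whose arrays overlapped, and lowest in Treg in vivo at 0 h (5.71). Tnf was highest in Tconv in vitro at 2 h (11.63), followed by Tconv (10.85) and Treg (10.71) in vivo at 2 h, which overlapped, and lowest in Tconv in vivo at 72 h (8.34). Lta had Treg in its top 3 by mean, in vivo at 2 h (8.93) and in vitro at 24 h (8.23) and 8 h (7.81), of which the last overlapped the second and several groups below it. Ifng had Tconv in its top 3, in vivo at 2 h (7.90) and 8 h (7.55), which overlapped, and in vitro at 2 h (6.96), and was lowest in Treg in vivo at 24 h (5.98). Il4 had Tconv there too, in vivo (7.0) and in vitro (6.86) at 2 h, which overlapped, and was lowest in Treg in vivo at 24 h (5.43).

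Over the 20 group means of the KT3 courses, Lif, Tnf and Lta varied together (Pearson's r 0.75 between Lif and Tnf, 0.71 between Lif and Lta, and 0.70 between Tnf and Lta), and Ifng went with Il4 (0.67) but not with Lta (0.06). These means share arrays across genes, and the r values describe them. The gene whose pattern was most like that of Tnf was Nfkbid (0.908), an inhibitor-like regulator of NF-kB, followed by the histone demethylase Kdm6b (0.902) and Ing5 (0.896). For Lif these were Mfsd2a (0.894), Ndufaf4 (0.886) and Dancr (0.881), and for Lta Wiz (0.851), Wdr59 (0.830) and Xbp1 (0.827). Ifng was most like Il2 (0.878), then Smim3 (0.748) and Sema7a (0.725). Il4 was most like Cd40lg (0.880), the ligand by which helper T cells act on B cells, then Fasl (0.829) and Tnfrsf19 (0.820). Il17a was most like Sh3bp4 (0.783), Gpx7 (0.777) and Slc25a10 (0.776).

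Of 10 further TNF family ligands 9 were tested, and at 2 h in vivo 1 was higher and 4 were lower in Treg than in Tconv, with a median difference of -0.59 against 0.03 over all genes, of which 2.94% were higher and 0.515% lower. Fasl, the death ligand, was lower in Treg by 2.61 ± 0.29 (adjusted p = 1.07e-06), and in culture at 2 h its Treg response was smaller (-2.20 ± 0.41, adjusted p = 0.0181), a call that was lost without the Tconv 0 h array that stood apart (-1.96, adjusted p = 0.102). Tnfsf4 (OX40 ligand) rose in Tconv at 24 h in vivo by 3.78 ± 0.30 (adjusted p = 2.7e-08), and its Treg response was smaller (-3.04 ± 0.42, adjusted p = 0.00185). Tnfsf8 (CD30 ligand) rose in cultured Treg at 8 h by 2.78 ± 0.39 (adjusted p = 3.57e-05), and its Treg response was the larger by 2.29 ± 0.55 (adjusted p = 0.0498), or 3.17 ± 0.47 without the Tconv 0 h array that stood apart (adjusted p = 0.000617).

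Among 22 other T cell cytokines and chemokines, 15 were tested, and 2 were higher and 6 lower in Treg at 2 h in vivo (median -0.32, against 0.03 over all genes, of which 2.94% were higher and 0.515% lower). The 15 include Il2 and Il21, which entered the test only through in vivo Tconv arrays of 2 and 8 h. The count of lower genes therefore follows in part from the filter, and no result is drawn from it. Cxcl10, an interferon-induced chemokine, was higher in Treg by 1.83 ± 0.51 (adjusted p = 0.0414) and rose by 4.60 ± 0.51 in cultured Treg at 8 h (adjusted p = 1.5e-06).

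Of 20 genes that Ifng is known to induce 14 were tested, and at 8 h in vivo 9 were higher and none lower in Treg than in Tconv, at the time when Treg arrays held less Ifng. The median difference was 1.66, against -0.02 over all genes, of which 3.2% were higher in Treg. The GTPase gene Gbp5 was among them (2.42 ± 0.29, adjusted p = 3.42e-06), and Ifngr1, the ligand-binding receptor chain, was also higher in Treg (2.34 ± 0.35, adjusted p = 9.82e-05). At 0 h 2 were already higher and at 2 h 3, with none lower, against 2.58% and 2.94% of all genes; Gbp5 differed by 1.67 ± 0.29 at 0 h (adjusted p = 0.000552). Macrophages express many of these genes, and their marker mean at 8 h was 7.72 and 5.70 on the Treg arrays and 6.47 and 5.43 on the Tconv arrays; its part in the counts was not tested. Treg response minus Tconv response called none of the 14 at 2 or 8 h in vivo, with a median of 1.19 at 8 h, against -0.02 over all genes.

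Of 16 receptor chains 13 were tested, and 2 were higher and none lower in Treg at 2 h in vivo, against 2.94% and 0.515% of all genes. These were Tnfrsf1b, the receptor for Tnf and Lta that Treg are known to carry (1.59 ± 0.21, adjusted p = 1.06e-05), and Ifngr1 (1.58 ± 0.35, adjusted p = 0.00803). Both were higher at 0 h too, by 1.95 ± 0.21 (adjusted p = 5.32e-07) and 1.39 ± 0.35 (adjusted p = 0.0245). In cultured Tconv at 2 h 5 rose and 2 fell, against 19.5% and 6.8% of all genes, and among those that rose were Ifngr2 (2.86 ± 0.30, adjusted p = 2.59e-07), Ifngr1 (2.82 ± 0.35, adjusted p = 3.63e-06) and Tnfrsf1b (2.28 ± 0.21, adjusted p = 1.72e-08). Without the 0 h array that stood apart 4 rose and none fell, against 2.77% and 2.21% of all genes, with Ifngr2 at 2.04, Ifngr1 at 1.87 and Tnfrsf1b at 2.44.

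Of 24 regulators of helper lineages and cytokine genes 21 were tested. Tbx21, which encodes T-bet, the factor that switches on Ifng, rose at 2 h in vivo in Treg by 3.53 ± 0.33 (adjusted p = 1.26e-07) and in Tconv by 2.96 ± 0.33 (adjusted p = 1.55e-06), and the difference between these responses was 0.57 ± 0.47. Irf4, a factor induced by receptor signals, rose by 3.07 ± 0.26 in Treg (adjusted p = 3.69e-08) and by 4.83 ± 0.26 in Tconv (adjusted p = 7.31e-12) at 2 h in vivo, and at 8 h its Treg response was smaller (-1.96 ± 0.37, adjusted p = 0.0149). Of the 21, 6 rose and 1 fell in Treg at 2 h in vivo, against 5.04% and 1.42% of all genes, and 6 rose in Tconv, against 3.04%. In level 6 of the 21 were higher in Treg and none lower, at 0 h and again at 2 h, against 2.58% and 2.94% of all genes. The 21 include Foxp3, whose reporter was used to sort the cells (mean 11.74 in Treg and 7.73 in Tconv at 0 h in vivo). Its part in these level counts was therefore fixed by the sort.

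Of the 10 regulators of cytokine mRNA decay, all tested, none passed the test at 2 h in vivo, with a median of 0.43 in Treg and 0.44 in Tconv. Of all genes 5.04% rose in Treg and 3.04% in Tconv at that time, with medians of -0.06 and -0.05. With 10 genes, a count of none lies near those shares. In cultured Tconv 8 of 10 rose at 2 h, against 19.5% of all genes, with a median of 1.42 against 0.06 over all genes. The difference between the settings was not tested for the list. Zfp36l1, whose product shortens the life of AU-rich transcripts such as that of Tnf, rose by 2.44 ± 0.45 there (adjusted p = 0.000511). Without the 0 h array that stood apart 4 of 10 rose, against 2.77% of all genes, with a median of 0.63 against -0.07, and Zfp36l1 rose by 1.36 ± 0.40 (adjusted p = 0.0486). In cultured Treg 1 of the 10 rose at 2 h, against 4.02% of all genes. For Zc3h12d the Treg response was smaller than the Tconv response at 24 h in culture (-1.82 ± 0.35, adjusted p = 0.0103), and by less without that array (-1.21 ± 0.27, adjusted p = 0.0468).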

How the data were processed

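Intensities from Affymetrix ST1.0 arrays, not logged, were what the authors deposited, with a value for every transcript cluster; RNA was amplified from sorted cells and preprocessed with RMA in GenePattern, per the labels' series design text, and Affymetrix Power Tools and RMA are named in the submitters' processing notes. RMA subtracts a background, so dim genes keep little of a change. No version or genome build was named. The number of arrays limits the precision.

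Of 24922 clusters, 21425 had 1 symbol, 1399 several, and 2098 were not listed and are unnamed here; the cluster with the highest mean stood for a symbol. The deposited intensities were taken to log2 with no offset and fitted with limma 3.58.1 (R 4.3.3), with a mean for each of 22 groups and all 42 arrays together (20 residual and 5.01 prior degrees of freedom), after removing 7327 dim genes. Moderated two-sided tests gave 56 contrasts, with Benjamini-Hochberg adjustment over 12425 genes each, called under 0.05. The model was tested on simulated data. The members, 6 pathway lists, cell type markers and motifs were chosen with earlier results of these data known. The naming rule took all members, Foxp3, Il2 and Il21, up to 3 called genes of a list with the largest response or response difference, and the 3 genes of most like pattern per member (leaving out unnamed, microRNA, small nucleolar and receptor-segment symbols); other contrasts of these genes, chosen after their values were seen, are given beside them. Alternatives covered quantile normalization, median centring, no filter or a stricter one, an offset of 32, cluster means, each setting alone, array weights, a trended robust prior, a replicate block, and leaving out arrays; list counts without the array that stood apart were added after seeing the data. Python 3.11.15, numpy 2.4.6, pandas 2.3.3 and matplotlib 3.10.9 handled tables and plots.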

Additional observations from a re-analysis of the deposited data

Results flagged for a closer look

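The Tnf responses of Treg and Tconv differed at 2 h in culture by a test of the difference itself (Treg minus Tconv -2.25 on the log2 scale), and the call was lost without the Tconv 0 h array that stood apart (-1.71) or any of 5 other arrays (-2.44 to -1.87). The in vivo and in vitro responses of Lif differed in Treg at 2 h (in vivo minus in vitro 3.01) and in Tconv at 8 h (2.80), the second of which was 2.33 and not called without the same array (adjusted p = 0.0694), and was not called without any of 3 other arrays (2.69 to 2.75) either. Those of Lta differed in Treg at 2 h (2.29) and, in the other direction, at 24 h (-1.63). The 24 h call was lost without any of 6 single arrays (-1.68 to -1.48), under quantile normalization (-1.35, adjusted p = 0.104) and with array weights (adjusted p = 0.0595).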

How the results depend on the processing

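Of 52 called member values, 25 kept their call without each array in turn and 24 in every setting; no value past the threshold changed its sign. Without 1 array, the count of called members was 6 to 7 for the in vivo Tconv response, 4 to 5 for the in vivo Treg response, 3 to 5 for the in vitro Tconv response and 0 to 8 for the in vitro Treg response. It was 4 to 6 for Treg minus Tconv levels in vivo and 3 to 9 in vitro, 0 to 0 for the difference of responses in vivo and 0 to 6 in vitro, 0 to 5 for in vivo minus in vitro in Tconv and 2 to 3 in Treg, 0 to 0 against IgG and 12 to 15 for steps in time. Fitting each setting alone gave 2 called for the in vitro Tconv response, against 5, 1 for the in vitro Treg response, against 5, 3 for the in vitro levels, against 5, 1 for the in vivo difference of responses (Ifng at 2 h), against 0, and 0 for that in vitro, against 1. Array weights gave 1 for the in vitro Tconv response, 0 for the in vitro difference of responses and 0 for in vivo minus in vitro in Tconv (against 1). Without the array that stood apart these 3 counts were 3, 0 and 0, and the in vitro Treg response had 8. That array is in no Treg group, so that the Treg count could change only through the spread shared over all arrays. Quantile normalization gave 2 for the in vitro difference of responses. The cause of the other changes was not tested.

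The labels do not say that arrays of 1 number share a mouse or day, although in vitro the number goes with sex and age and in vivo mostly with the sort. Deviations of same-numbered arrays correlated over 0.1 in most pairs of groups but not in each, 32 of 45 in vivo (-0.17 to 0.78) and 28 of 45 in vitro (-0.45 to 0.71). With the number as a replicate block all 52 calls held and 6 more values passed, among them the Lif response differences in culture at 8 h (1.99, adjusted p = 0.0455) and 24 h (2.15, adjusted p = 0.0409). Both of these Lif values use the Tconv 0 h array that stood apart. The block gave 3 called for the in vitro difference of responses and 2 for in vivo minus in vitro in Tconv. With 2 arrays a group a p that misses the threshold does not show that values were alike, and for Csf2, Il3, Il4 and Treg Ifng, at or below the array medians, the signal over background limits what can be seen.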
